A study of Homo sapiens with 46 samples.

Results

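Transcript levels of 10 genes that are switched on by the ERK pathway, and that in part switch it off again, were followed through 46 RNA-seq libraries of HEK293T cells in which single mitochondrial mRNAs had been silenced. The genes were chosen by symbol: the ETS transcription factors ETV4, ETV5 and ETV1, the phosphatases DUSP6 and DUSP4, the Sprouty proteins SPRY2 and SPRY4, the related SPRED1 and SPRED2, and the immediate early factor EGR1. They are 10 of 58735 genes listed and 10 of 20272 genes tested, so all of them passed the filter on low counts. They were picked because ETV4 was higher after COX2 silencing, and the COX2 values are therefore given as a description without a test.

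HEK293T is a human embryonic kidney line, here of wild-type genotype. Cells received, with the delivery agent EndoPorter, 2 µM of a chimera for 48 h, that is, a morpholino antisense oligomer joined to pCox4, a presequence that carries it into mitochondria, where it covers one mRNA. The 11 treatments were the ATP6, ATP8, COX1, COX2, COX3, CYTB, ND1, ND2, ND3, ND4L and ND5 chimeras, and the control cells received the pCox4 presequence without a morpholino. Each condition has 4 libraries except COX2 (replicates 2, 3 and 4) and ND2 (replicates 1, 3 and 4), with replicates 1 and 2 in batch 1 and replicates 3 and 4 in batch 2, which differ in day and reagents. Every treatment was compared with the same 4 control libraries, so the 11 differences from control are not independent of each other. The study's methods call the libraries biological replicates.

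ERK is the last kinase of the cascade that runs from growth factor receptors through RAS, RAF and MEK. Active ERK phosphorylates ternary complex factors at serum response elements and induces immediate early genes such as EGR1 within minutes, and in many cells it raises ETV4 and ETV5, whose transcripts are often read as its output. It also induces its own brakes: DUSP6 and DUSP4 remove the phosphates from ERK, and Sprouty and SPRED proteins act upstream, where SPRED proteins bring neurofibromin to RAS.

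The COX2, COX3, ATP8 and ND5 chimeras are shown first, since the results turn on these treatments. Each morpholino is written 5′ to 3′, and capitals mark the bases that pair with the first codon of the target. The reverse complement of each matched its target in the GENCODE 29 transcripts without a mismatch, on the plus strand of the mitochondrial chromosome in GRCh38.

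COX2 chimera, MT-CO2 coding sequence, MT:7586-7608: cctacttgcgctgcatgtgcCAT
COX3 chimera, MT-CO3 coding sequence, MT:9208-9225: catgtgattggtgggtCA
ATP8 chimera, MT-ATP8 coding sequence, MT:8371-8393: gccatacggtagtatttagttgg
ND5 chimera, MT-ND5 coding sequence, MT:12339-12361: tggttatagtagtgtgcatggtT

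The COX2, COX3 and ND5 morpholinos reach into the first codon with 3, 2 and 1 bases, whereas the ATP8 morpholino begins at position 6 of its transcript and covers none of it. A chimera of this kind covers the mRNA and need not remove it. The transcript of the silenced gene itself ranged from a log2 fold change of -1.33 after COX1 silencing to 1.02 after ND2 silencing, so its count does not check the labels in every treatment.

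Library depth and cell identity were checked once. Total counts ran from 18876395 to 100698084 per library, and no library other than COX3 replicate 4 exceeded 28121898, and the lowest count behind any value of the 10 genes was 59 (DUSP6). Of 6 markers of the line, NEFL, KRT8, KRT18, VIM and PAX2 were at or above 4.81 CPM in every library and NEFM was near 1 CPM (median 0.975). CPM are counts of a gene scaled to a fixed library total, which is the plain total for the markers and the effective total for the 10 genes. CD3E, PTPRC, ALB, MYH6, PECAM1 and GFAP, which mark other lineages, did not exceed 1.79 CPM in any library. In such bulk samples, fewer cells that express a gene and less RNA per cell cannot be told apart.

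Per kilobase of gene model, EGR1 was the most abundant of the 10 and SPRY4 the least. The median over 46 libraries was 11.5 CPM per kb for EGR1, 9.18 for SPRED2, 5.10 for SPRY2, 3.88 for ETV4, 2.60 for SPRED1, 2.59 for ETV5, 1.25 for ETV1, 1.15 for DUSP4, 0.889 for DUSP6 and 0.799 for SPRY4. The genes also differed in how far their level moved among libraries. ETV4 spanned 2.96-fold from the lowest to the highest library, ETV5 2.55-fold, SPRY4 2.44-fold and EGR1 2.22-fold. SPRED2 and SPRED1 were the steadiest, with spans of 1.37-fold and 1.42-fold.

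**Figure D1:**
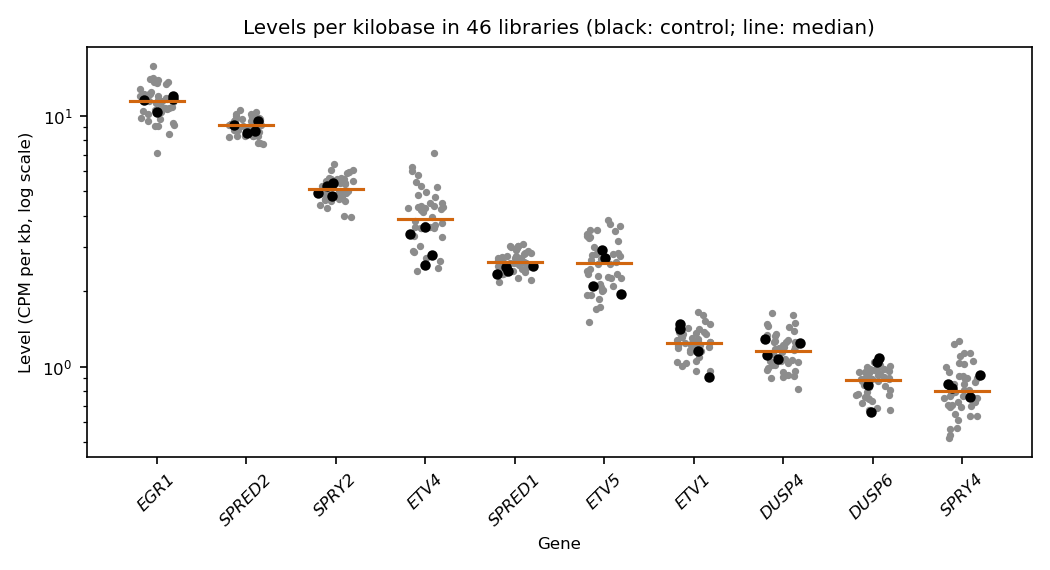
Level of each gene in CPM per kilobase (log scale) in all 46 libraries, with the 4 control libraries in black and the median as a line. EGR1 is highest (median 11.5) and SPRY4 lowest (0.799), and ETV4 and ETV5 spread more widely than SPRED1 and SPRED2.

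ETV4, the gene on which the choice rests, lies at 17:43527844-43579620 on the minus strand (GRCh38) and encodes an ETS factor of the PEA3 group. In the control its level was 10.03, 13.002, 12.2 and 9.14 CPM in replicates 1 to 4. After COX2 silencing it was at 22.5 CPM in replicate 2, 25.7 in replicate 3 and 11.97 in replicate 4. Replicates 2 and 3 thus lay above every control library, while replicate 4 lay inside the control range. Each of the 3 was higher than the control library of its own number.

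The fitted difference for COX2 was a log2 fold change of 0.91 (SE 0.19), a fold of 1.88. Within batch 1, where COX2 has a single library, it was 0.97, and within batch 2 it was 0.83. Leaving out COX2 replicate 3 lowered it to 0.62 and leaving out COX2 replicate 4 raised it to 1.14. Across all genes, 0.469% were called in this comparison by edgeR's quasi-likelihood test at an adjusted p under 0.05, a figure given for scale only.

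COX2 values of the other 9 genes are likewise a description. ETV5, a close relative of ETV4, was at 20.3, 20.3 and 12.1 CPM in replicates 2, 3 and 4 against 12.2, 15.8, 16.9 and 11.3 in the control (log2 fold change 0.39, SE 0.17). SPRY4, which restrains signalling upstream of RAS, was at 8.05, 8.30 and 4.54 CPM against 5.59, 5.38, 6.09 and 4.97 (0.37, SE 0.18). In both genes replicates 2 and 3 exceeded all controls and replicate 4 did not, as for ETV4. Leaving out single COX2 or control libraries moved ETV5 between 0.18 and 0.57 and SPRY4 between 0.18 and 0.58.

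Smaller COX2 differences were seen for SPRED1 (0.21, SE 0.085), EGR1 (0.21, SE 0.10) and ETV1 (0.20, SE 0.11). Leaving out single COX2 or control libraries moved SPRED1 between 0.135 and 0.295, EGR1 between 0.078 and 0.303 and ETV1 between 0.095 and 0.288. EGR1 was at 38.4, 49.7 and 36.8 CPM in COX2 replicates 2, 3 and 4, and the 49.7 was its highest value in any library. SPRED1 was at 24.6, 24.7 and 19.8 CPM, with replicate 4 again the one inside the control range. ETV1 was the exception in that its libraries, at 13.7, 14.2 and 13.6 CPM, differed little from each other and lay inside the control range of 8.78 to 14.2 CPM. DUSP4 (0.13), SPRED2 (0.07), SPRY2 (0.06) and DUSP6 (-0.05) differed by less than their standard errors. The median over the 10 genes was 0.21, against 0.00 over all genes tested. The signs of DUSP6, SPRY2, SPRED2 and ETV1 were not fixed, since each turned in at least 1 alternative.

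**Figure D2:**
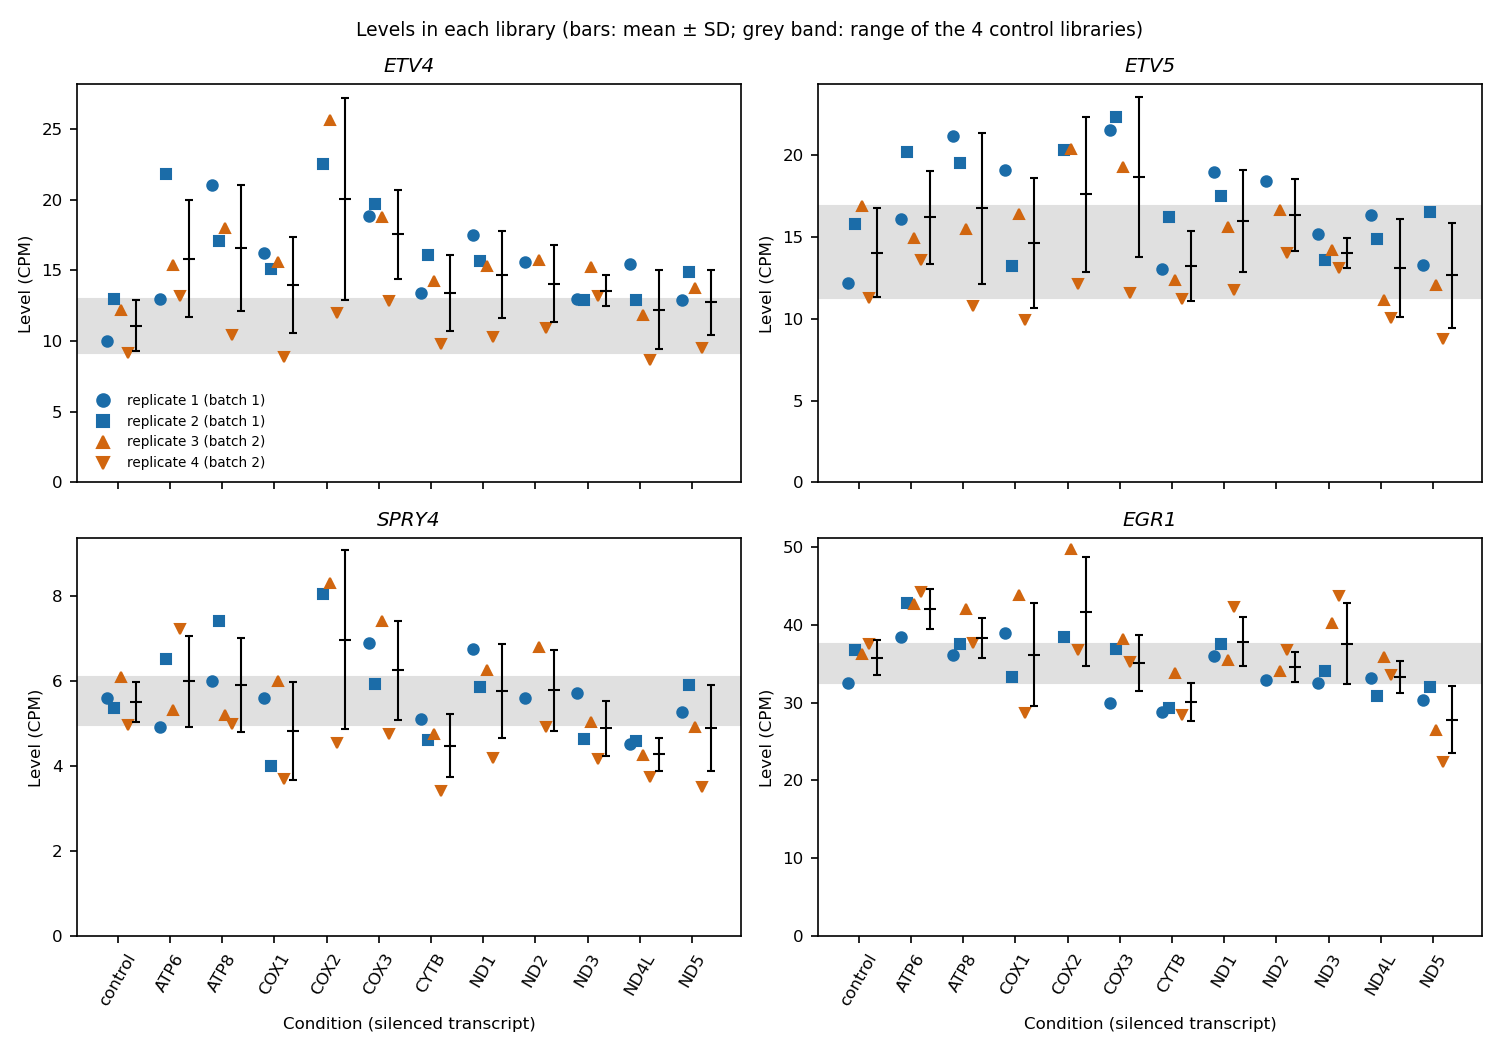
Level in CPM of ETV4, ETV5, SPRY4 and EGR1 in each library by condition, with symbols for replicate, colours for batch, bars for mean ± SD and a grey band for the control range. ETV4 is highest after COX2 silencing in replicates 2 and 3 (22.5 and 25.7), and EGR1 after ND5 silencing lies below the control band in all 4 libraries.

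The remaining 10 treatments gave 100 tests of these genes against control, and none of them passed an adjusted p of 0.05 (edgeR's quasi-likelihood test, Benjamini-Hochberg over 20272 genes). Over all genes 0.141% of such tests were called. By treatment the share of all genes called was 0.00987% for ATP6 and for ND3, 0.0247% for ND2, 0.0543% for COX1, 0.0641% for ATP8, 0.0888% for ND1, 0.148% for ND4L, 0.158% for ND5, 0.306% for COX3 and 0.548% for CYTB, so few genes of any kind passed this test. At an unadjusted p under 0.05 there were 13 tests of the 100, or 13%, beside 9.41% over all genes. That count includes tests of ETV4, whose control level is part of the choice of genes, so the 13% is not independent of the choice. DESeq2 also called 0 of the 100. The 13 were spread over 7 of the 10 genes: ETV4 in ATP6, ATP8, COX3 and ND1, EGR1 in ATP6, CYTB and ND5, SPRED1 in COX3 and ND1, and ETV5, ETV1, SPRY2 and SPRY4 in 1 treatment each.

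ETV4 had its lowest mean in the control, at 11.1 ± 1.80 CPM (SD, n = 4), and its fitted difference was positive in all 10 treatments, which share those 4 control libraries. ETV4 was chosen for its COX2 value over these same controls, so its low control level is part of the choice, and its tests against control are not independent of it. After COX3 silencing it was at 18.9, 19.7, 18.8 and 12.9 CPM, with replicates 1 to 3 above the control range and replicate 4 just under its upper end. The log2 fold change was 0.64 (SE 0.18), with an adjusted p of 0.106 in edgeR. After ATP8 silencing it was at 21.0, 17.0, 18.0 and 10.4 CPM, again with replicate 4 alone inside the control range.

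For ATP8 the log2 fold change was 0.58 (SE 0.18) and the adjusted p 0.200 in edgeR. With the replicate number as a block in place of the batch, the pairing described with the processing, ETV4 was called in both: 0.66 after COX3 (SE 0.12, adjusted p 0.00153) and 0.57 after ATP8 (SE 0.12, adjusted p 0.0190). Calls of all genes rose in that fit too, from 62 to 158 for COX3 and from 13 to 36 for ATP8.

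After ATP6 silencing ETV4 was at 12.96, 21.8, 15.4 and 13.2 CPM, and here replicate 1 was the library inside the control range. After ND1 silencing it was at 17.5, 15.7, 15.3 and 10.3 CPM, with replicate 4 lowest as in COX3 and ATP8. Its replicate 4 value was the lowest of the condition in COX1 (8.89 CPM), COX2, COX3, CYTB (9.77), ND2 (10.9), ND4L (8.68), ND5 (9.52), ATP8, ND1 and the control, and not in ATP6 and ND3. In ND3 the 4 libraries were at 12.995, 12.9, 15.2 and 13.2 CPM.

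Fitted differences of ETV4 in the other 8 treatments were smaller than those in COX3 and ATP8. They were 0.51 after ATP6, 0.40 after ND1, 0.39 after ND2, 0.33 after COX1, 0.31 after ND3, 0.26 after CYTB, 0.20 after ND5 and 0.13 after ND4L, with standard errors of 0.18 to 0.20. Leaving out single libraries moved ND4L between 0.038 and 0.233 and ND5 between 0.105 and 0.296. It moved ND3 between 0.189 and 0.406 and COX1 between 0.210 and 0.461. The 95% interval for ND4L, the lowest, reached from -0.24 to 0.50, so these libraries do not settle whether it differed from control. The mean of the 10 treatments against control, a contrast added after the values were seen, was 0.37 (SE 0.14, adjusted p = 0.254 in edgeR), where 0.0987% of all genes were called.

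Ordered by mean level, ETV4 ran from COX2 (20.1 ± 7.17 CPM, n = 3) through COX3 (17.5 ± 3.15), ATP8 (16.6 ± 4.46), ATP6 (15.8 ± 4.13), ND1, ND2, COX1, ND3, CYTB and ND5 to ND4L (12.2 ± 2.80) and the control. None of the 11 neighbouring pairs in that order differed by more than the larger of their SDs. Differences between single steps of the order are therefore within the spread of the libraries.

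Against the mean of the other 9 treatments, which does not use the control libraries, ETV4 was higher after COX3 silencing by 0.29 (SE 0.12, adjusted p 0.833) and lower after ND4L silencing by a log2 fold change of -0.27 (SE 0.14, adjusted p 0.444). Neither passed edgeR's test, and with the replicate block the COX3 difference was 0.31 (adjusted p 0.122).

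ETV5 and ETV1 are the remaining PEA3 factors. ETV5, at 3:186046308-186110318, was highest on average after COX3 silencing, with 21.5, 22.3, 19.3 and 11.6 CPM, where replicates 1 to 3 exceeded the control range (log2 fold change 0.37, SE 0.15, adjusted p 0.352). It was lowest after ND5 silencing (12.7 ± 3.21 CPM, SD, n = 4). The control, at 14.0 ± 2.73 CPM, stood among the lower conditions, and ND3, CYTB, ND4L and ND5 had means below it, unlike in ETV4. After ATP8 silencing ETV5 was at 21.1, 19.5, 15.5 and 10.8 CPM, so that its replicates ran from above to below the control range (0.24, SE 0.16, adjusted p 0.630). ETV1, at 7:13891228-13991425, stood between 10.1 ± 1.05 CPM after CYTB silencing and 13.8 ± 0.326 after COX2 silencing (SD, n = 4 and n = 3), with a log2 fold change of -0.23 after CYTB (SE 0.11, adjusted p 0.317). Its control libraries differed by batch, at 8.78 and 11.1 CPM in replicates 1 and 2 and 13.6 and 14.2 CPM in replicates 3 and 4. The CYTB libraries, at 9.69, 9.98, 11.6 and 9.23 CPM, were below both batch 2 controls and inside the control range as a whole.

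No difference was detected for the phosphatases. DUSP6, which acts on ERK in the cytoplasm, had condition means between 3.68 and 4.36 CPM, and its control libraries alone spanned 3.06 to 5.02 CPM. Its libraries after ND1 silencing (4.21, 4.22, 4.14 and 3.98 CPM) were far closer to each other than those of the control. DUSP4, a nuclear phosphatase of the same family, had condition means between 7.75 and 9.22 CPM and control libraries at 9.05, 9.39, 7.82 and 8.10 CPM. Fitted differences from control in the 10 treatments lay between -0.19 and 0.05 for DUSP6 and between -0.14 and 0.07 for DUSP4, with standard errors of 0.14 to 0.16.

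Sprouty genes had 1 treatment each with an unadjusted p under 0.05, SPRY4 a lower and SPRY2 a higher level. SPRY4, at 5:142310427-142326455, was at 4.52, 4.58, 4.26 and 3.74 CPM after ND4L silencing, all below the lowest control (4.97). Its log2 fold change there was -0.37 (SE 0.17, adjusted p 0.321 in edgeR), so the separation did not pass the test. After CYTB silencing it was at 5.11, 4.62, 4.75 and 3.41 CPM, with 3 of 4 below that control (-0.30, SE 0.17, adjusted p 0.451). After COX3 silencing, where ETV4 and ETV5 had high values, SPRY4 was at 6.90, 5.93, 7.41 and 4.76 CPM (0.15, SE 0.17, adjusted p 0.822). SPRY2, at 13:80335976-80340951, was highest after ND2 silencing, with 18.4, 19.5 and 16.3 CPM against 14.6 to 16.4 in the control (0.23, SE 0.10, adjusted p 0.998). Its lowest mean was that of ND1 (14.3 ± 1.45 CPM, SD, n = 4), where replicate 4 was at 12.1 CPM and the other 3 between 14.5 and 15.3 CPM.

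SPRED1, at 15:38252326-38357249, had its lowest mean in the control (20.2 ± 0.699 CPM, SD, n = 4), as ETV4 did. After ND1 silencing all 4 libraries (23.5, 24.1, 21.6 and 22.7 CPM) exceeded the highest control of 20.9, with a log2 fold change of 0.19 (SE 0.079, adjusted p 0.320 in edgeR). After COX3 silencing it was at 25.0, 23.8, 25.5 and 18.6 CPM, above all controls in replicates 1 to 3 and below all of them in replicate 4 (0.19, SE 0.078, adjusted p 0.358). SPRED2, at 2:65310851-65432637, had condition means between 43.6 and 49.0 CPM. Its fitted differences in the 10 treatments lay between -0.09 and 0.08, with standard errors of 0.072 to 0.079.

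**Figure D3:**
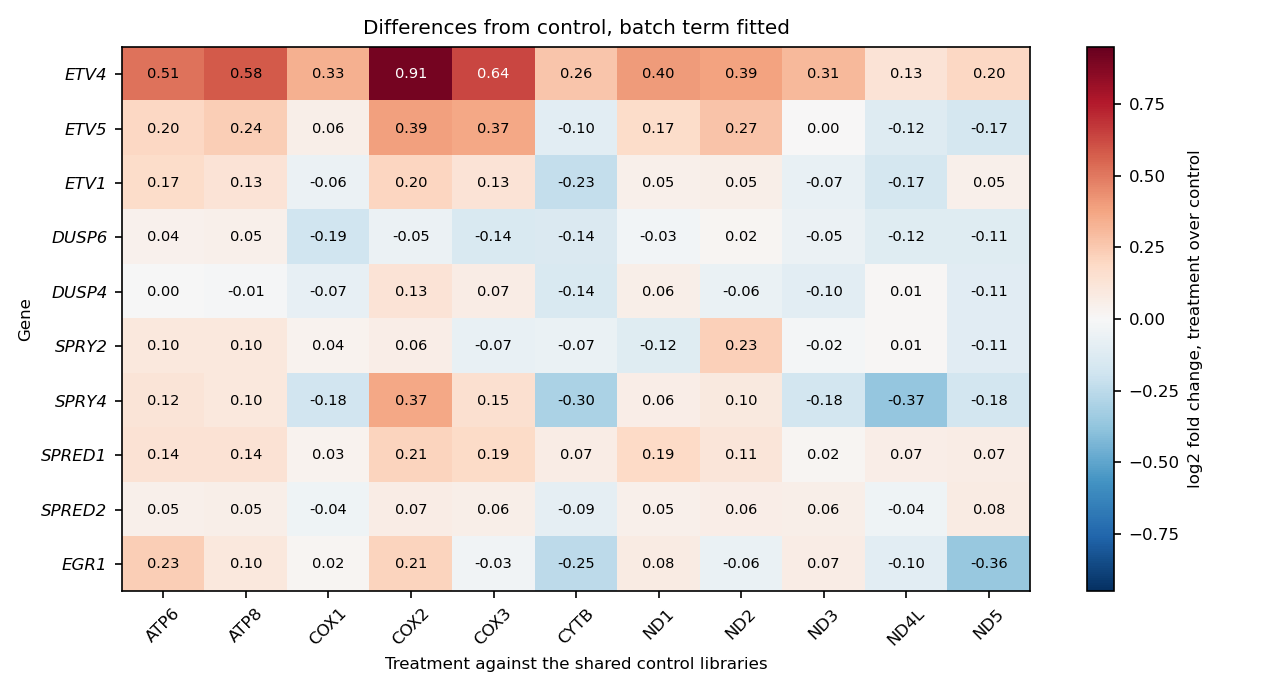
Fitted log2 fold change of each gene in each treatment over the shared control libraries, with the batch in the model and the value printed in each cell. ETV4 is positive in all 11 columns, from 0.13 after ND4L silencing to 0.91 after COX2 silencing, and EGR1 is lowest after ND5 silencing (-0.36).

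EGR1, a zinc finger factor induced early by ERK, lies at 5:138465490-138469315 on the plus strand. It was the gene of the set that was called across conditions. Its promoter is shown because the CArG box, the core of the serum response element, is the textbook link from ERK to this gene. The window holds 250 bases before and 50 after the RefSeq start (GRCh38.p14, plus strand), with both CArG boxes in capitals.

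EGR1 promoter, chr5:138465229-138465528: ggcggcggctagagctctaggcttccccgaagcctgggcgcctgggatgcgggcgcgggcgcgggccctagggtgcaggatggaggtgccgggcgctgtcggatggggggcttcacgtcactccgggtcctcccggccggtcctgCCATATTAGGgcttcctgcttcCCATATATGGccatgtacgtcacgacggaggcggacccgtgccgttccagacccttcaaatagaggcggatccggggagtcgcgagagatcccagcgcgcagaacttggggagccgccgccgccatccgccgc

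The boxes lie 105 to 96 and 83 to 74 bases before the start. Of 35116 promoter windows of the same length, 454 (1.29%) held a CArG box on either strand and 11 (0.0313%) held 2 or more. RefSeq windows were given for 7 of the 10 genes, 15 windows in all, and EGR1 alone had the motif among them. The palindrome TGACGTCA (1.85% of all windows) and the ETS motif CCGGAAG (10.3%) were in none of the 15, and TGANTCA (7.71%) was in 1 window of SPRED2, all read on both strands. A match or its absence describes these letters only.

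In the control EGR1 was at 32.5, 36.7, 36.3 and 37.5 CPM. After ND5 silencing it was at 30.4, 32.0, 26.5 and 22.3 CPM, below the lowest control in all 4 libraries. After CYTB silencing it was at 28.8, 29.3, 33.7 and 28.4 CPM, below it in 3 of 4. After ATP6 silencing it was at 38.4, 42.7, 42.6 and 44.2 CPM, above the highest control in all 4, so ND5 and ATP6 did not overlap each other or the control. Over the 10 genes and 10 treatments, 5 of 100 groups lay wholly beyond the control range (EGR1 in ND5 and ATP6, SPRED1 in ND1 and ND2, and SPRY4 in ND4L), beside 3.64% over all genes.

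Tested across 11 conditions, with the COX2 libraries left out, EGR1 was the 1 gene of 10 called (F = 6.21, adjusted p = 0.00227, edgeR's quasi-likelihood F test), while 0.485% of 20218 genes were called. ETV1, ETV5, ETV4, SPRY4 and SPRY2 had unadjusted p of 0.00656, 0.00691, 0.00758, 0.0134 and 0.0201 and adjusted p of 0.216 to 0.312. The remaining 4 genes had unadjusted p of 0.182 or more. With the replicate block ETV4 (adjusted p 0.00362) and ETV5 (0.0265) were called as well, among 279 genes in all. This test includes the 4 control libraries, whose ETV4 level is part of the choice, so that the values of ETV4 in it are not independent of that choice. The call of EGR1 was lost with no batch term (adjusted p 0.0741), in batch 1 alone (0.325) and in batch 2 alone (0.0634).

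Against the mean of the other 9 treatments, which leaves the control libraries out of the contrast, EGR1 was lower after ND5 silencing by a log2 fold change of -0.37 (SE 0.075, adjusted p = 0.00589 in edgeR). It was the 1 call in 100 such tests of the 10 genes, where 0.102% of tests of all genes were called. In the ND5 contrast 0.666% of all genes were called and 0.227% were called lower. In the other 9 contrasts, with no call among the 10 genes, the shares were 0.00987% for ATP6 and for ND3, 0.0148% for ATP8 and for ND4L, 0.0296% for ND2, 0.0543% for COX3, 0.0641% for COX1 and for CYTB and 0.0888% for ND1. Its difference after ATP6 silencing was 0.29 (SE 0.070, adjusted p 0.280). After CYTB silencing it was -0.25 (SE 0.074, adjusted p 0.362).

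The ND5 difference was uneven between batches. It was -0.15 in batch 1 (adjusted p 0.622) and -0.61 in batch 2 (adjusted p 0.0205), and the batches were not tested against each other. Leaving out ND5 replicate 4 gave -0.25 (adjusted p 0.218) and leaving out ND5 replicate 3 gave -0.33 (adjusted p 0.0655). Without all replicate 4 libraries, an alternative added after seeing the data, it was -0.27 (adjusted p 0.0745), and ETV5 after COX3 silencing was then the 1 call of this kind (0.41, adjusted p 0.0457). ETV5 was lower in replicate 4 than in replicate 3 in 12 of 12 conditions, so its call is not independent of leaving those libraries out. Against control the EGR1 difference after ND5 silencing was -0.36 (SE 0.098, adjusted p 0.125), and the same contrast against control was -0.25 after CYTB (adjusted p 0.222) and 0.23 after ATP6 (adjusted p 0.472).

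In order of mean level EGR1 ran from ATP6 (41.98 ± 2.52 CPM) and COX2 (41.6 ± 7.01) down to ND4L (33.3 ± 2.04), CYTB (30.1 ± 2.47) and ND5 (27.8 ± 4.302). The control (35.8 ± 2.22, n = 4) stood in the middle, with COX1 (36.2 ± 6.64) above it and COX3 (35.1 ± 3.61) below. Within ND3 the 4 libraries spanned 32.5 to 43.6 CPM and within COX1 28.6 to 43.8 CPM, each wider than the control range. Of its 11 neighbouring pairs, ND4L and CYTB differed by more than the larger SD and the other 10 did not. In SPRY2, SPRY4, ETV1, ETV5, SPRED1, SPRED2, DUSP4 and DUSP6 no neighbouring pair did.

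Genes around these 10 in the pathway were counted from lists. In the 10 treatments against control, 0 of 200 tests of 20 further ERK targets and feedback genes, 0 of 270 tests of 27 ligands and receptors, 0 of 300 tests of 30 genes of the RAS, RAF, MEK and ERK core and 0 of 50 tests of 5 further dual-specificity phosphatases were called, with 29, 16, 29 and 11 at an unadjusted p under 0.05 by edgeR. Among 26 other immediate early genes there was 1 call in 260 tests. At an unadjusted p under 0.05 there were 43 (16.5%), from 0 after ND3 silencing to 11 after ND5 silencing. Over all genes the share at this p was 3.31% after ND3 and 9.3% after ND5. The shares at that p were 14.5% for further targets, 5.93% for ligands and receptors, 9.67% for the core and 22% for the phosphatases, beside 9.41% over all genes, of which 0.141% were called. The call was BTG2, an antiproliferative early gene, which was lower after COX3 silencing (log2 fold change -0.28, SE 0.045, adjusted p = 6.96e-04).

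Across the 11 conditions 2 of 26 other immediate early genes were called, BTG2 (adjusted p 2.43e-04) and ATF3, a stress-induced early factor (0.0145), and none in the other lists, beside 0.485% of all genes. Against the other 9 treatments FOSL1, an AP-1 subunit stabilised by ERK, was the 1 of 20 further targets called after ND5 silencing and was lower (-0.50, SE 0.11, adjusted p 0.0168). MET, the receptor for hepatocyte growth factor, was the 1 of 27 ligands and receptors called there and was higher (0.15, SE 0.035, adjusted p 0.0254), where 0.666% of all genes were called. BTG2, the 1 of 26 other early genes called after COX3 silencing in that contrast, was lower (-0.21, adjusted p 9.11e-04), beside 0.0543% of all genes.

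Several of the 10 genes differed between batches. Of the 10, 5 were lower in batch 2 (ETV5 -0.36, ETV4 -0.27, DUSP4 -0.26, SPRY4 -0.16 and SPRED1 -0.13 on the log2 scale, adjusted p 3.91e-06 to 0.0471) and none was called higher. Over all genes 57.1% were called in either direction, which is near the 5 of 10 here, and 27.9% were called lower, a share that is smaller than 5 of 10. The call of SPRY4 was not secure: its adjusted p was 0.0761 in DESeq2, and when single libraries were left out it was 0.0168 to 0.0827 and the call held in only 21 of 46 fits. The other 4 calls held in 46 of 46. EGR1 (0.08, adjusted p 0.0745) and ETV1 (0.10, adjusted p 0.0534) had positive differences that did not pass.

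Of 26 other immediate early genes tested between batches, 20 were called, 18 of them lower in batch 2, beside the 57.1% called and 27.9% called lower over all genes. The 6 with the smallest adjusted p were GADD45B (-1.15), CTGF (-1.16), FOSB (-1.41), ATF3 (-0.34), FOS (-0.96) and CYR61 (-0.59). FOS and FOSB are AP-1 subunits induced by serum and by ERK alongside EGR1. The treatments were spread over both batches, so that this difference was carried by the batch term.

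Within batch 2, several of the 10 genes were lower in replicate 4 than in replicate 3, a comparison added because these values had been seen, so that they are given for the 10 genes as a description without a test. ETV4 was lower in replicate 4 in 12 of 12 conditions, at 46.7% (COX2) to 86.6% of the replicate 3 level, and at 57.0% or more outside COX2. ETV5 was lower in 12 of 12 (59.5% to 92.1%), SPRY4 in 11 of 12, ETV1 in 10 of 12, SPRY2 and SPRED1 in 9 of 12, DUSP6 in 8 of 12, DUSP4 and EGR1 in 7 of 12 and SPRED2 in 5 of 12.

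In the fit with the replicate block the log2 difference of replicate 4 from replicate 3 was -0.56 for ETV4 (SE 0.070), -0.42 for ETV5 (SE 0.070), -0.38 for SPRY4 (SE 0.084) and -0.18 for SPRY2 (SE 0.049). Without the 3 COX2 libraries, whose ETV4 values the choice of genes had used, these were -0.50, -0.39, -0.33 and -0.16. DUSP4 and SPRED2 were at 0.00 with all libraries. Over all genes 6.04% were called in this comparison by edgeR and 3.08% were called lower. Between replicates 2 and 1 none of the 20272 genes was called, with 1461 at an unadjusted p under 0.05.

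Of the pathway lists, 6 of 26 other immediate early genes were called between replicates 4 and 3: CTGF (-0.52), CYR61 (-0.28), KLF4 (-0.18), KLF10 (-0.14) and MCL1 (-0.07) were lower in replicate 4, and JUND (0.30) was higher. Of 20 further ERK targets and feedback genes, 3 were lower, PHLDA1 (-0.23), the phosphatase DUSP5 (-0.16) and ETS2 (-0.13), and 2 were higher, IL17RD (0.23), a feedback inhibitor of FGF signalling also known as SEF, and EPHA4 (0.12). Of 27 ligands and receptors 4 were higher, PDGFA (0.42), FGFR2 (0.14), FGF13 (0.13) and EGFR (0.12), and FGF9 (-0.29) was lower. ELK1 (-0.13), a ternary complex factor, was the 1 call in 30 core genes and DUSP8 (0.22) the 1 in 5 further phosphatases, all by edgeR at an adjusted p of 4.56e-07 to 0.0408.

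The batch comparison rested in part on replicate 4. Without the 12 replicate 4 libraries the batch difference was -0.02 for ETV4, 0.01 for SPRY4 and -0.07 for SPRED1, none of them called. DUSP4 (-0.26) and ETV5 (-0.16) were still lower in batch 2, and EGR1 (0.13) and ETV1 (0.17) were then called higher. These are 4 of 10 genes, where 46.8% of the 20409 genes tested were called in that fit, so the share of the 10 genes was near that of all genes. Median depth was 22696307 counts in replicate 3 and 23902514 in replicate 4. The part of depth or of any other property of the replicate 4 libraries in these values was not tested.

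**Figure D4:**
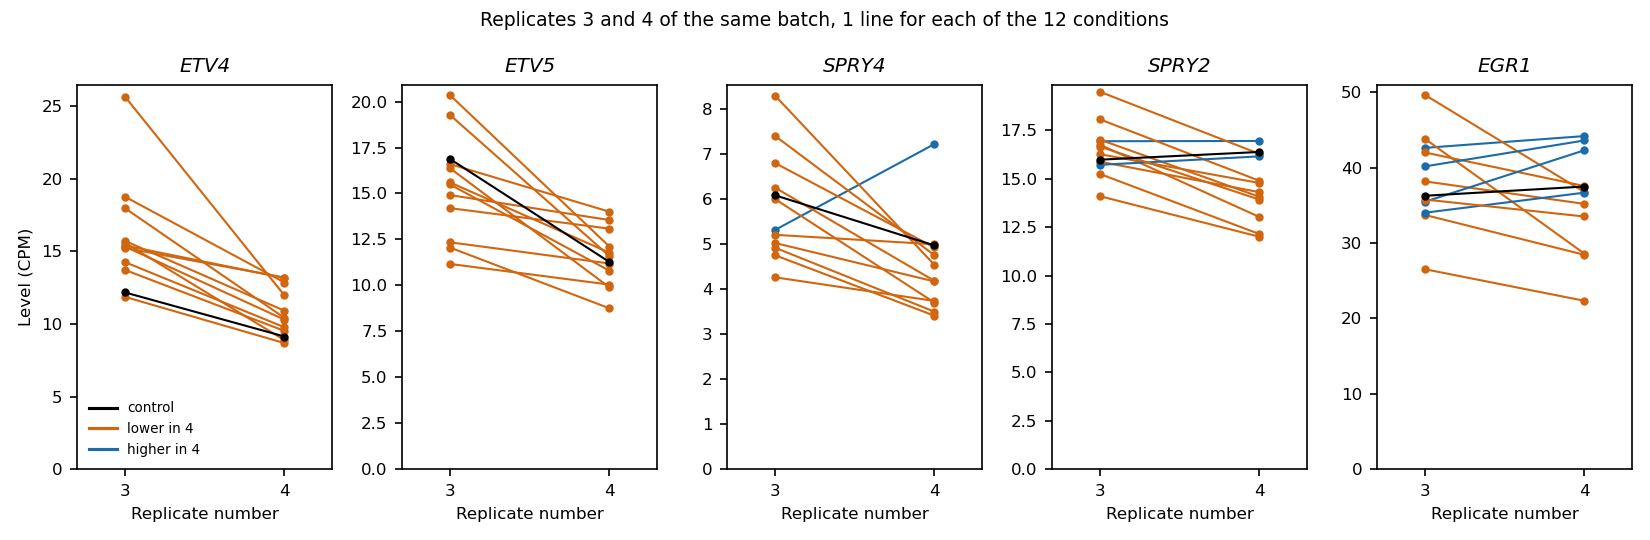
Level in CPM of 5 genes in replicates 3 and 4, with 1 line for each of the 12 conditions (black for the control). ETV4 and ETV5 are lower in replicate 4 in 12 of 12 conditions and SPRY4 in 11, whereas EGR1 is lower in 7.

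The 9 other genes were set against ETV4 from library to library after the means of condition and batch had been removed. Over 46 libraries ETV5 followed ETV4 most closely (Pearson r = 0.87, Spearman rho = 0.89, permutation p = 1e-05 for both, the smallest that 100000 permutations can give, adjusted p 3e-05 over the 9 relations). SPRY4 (r = 0.69, rho = 0.65) and SPRY2 (r = 0.69, rho = 0.66) came next, each with the same smallest permutation p. ETV1 had r = 0.57 and rho = 0.60 (permutation p = 2e-05 for both), SPRED1 r = 0.56 and rho = 0.47 (permutation p = 5e-05 and 0.0013), and EGR1 r = 0.53 and rho = 0.47 (permutation p = 1.1e-04 and 8.4e-04).

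DUSP6 had r = 0.42 and rho = 0.38 (permutation p = 0.00451 and 0.00899) and SPRED2 r = 0.41 and rho = 0.38 (0.0045 and 0.00849). DUSP4 had r = 0.27 (permutation p = 0.0695) and rho = 0.30 (0.0409). Adjusted over the 9 relations, 8 Pearson p-values were under 0.05, the largest of them 0.00507, and DUSP4 was at 0.0695. Of the 15258 genes with a mean of at least 1 CPM, 1360 (8.91%) had an r with ETV4 at or above 0.41, the lowest r of the 8, and 15.3% reached it in either direction. The 46 libraries include the 3 of COX2, whose ETV4 values the choice of genes had used and which hold both the highest (0.52) and the lowest (-0.57) ETV4 residual. Without them (n = 43) r was 0.86 for ETV5, 0.67 for SPRY2, 0.63 for SPRY4, 0.61 for ETV1, 0.47 for SPRED1, 0.46 for EGR1, 0.43 for DUSP6, 0.34 for SPRED2 and 0.26 for DUSP4. The adjusted permutation p was then 0.0289 for SPRED2, 0.0973 for DUSP4 and at most 0.0049 for the other 7. All these permutations shuffled the residuals freely, although terms for condition and batch had been fitted. The permutation p-values are therefore too small, which matters most for those near the threshold. Without the 2 libraries farthest from the ETV4 median the r was 0.85 for ETV5, 0.66 for SPRY4, 0.63 for SPRY2 and 0.32 to 0.55 for the others except DUSP4 (0.26).

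Both the batch and the replicate number bore on these values. With the replicate number removed in place of the batch, r was 0.75 for ETV5, 0.65 for SPRED2, 0.51 for SPRY2, 0.49 for EGR1, 0.46 for DUSP6, 0.44 for DUSP4 and SPRY4 and 0.39 for ETV1 and SPRED1, all with adjusted permutation p under 0.05 (largest 0.00812). Within batch 1 (n = 22) r ranged from 0.30 (SPRY4 and SPRY2, which missed the threshold at an adjusted permutation p of 0.181 each) to 0.84 (SPRED1), with ETV5 at 0.75. Within batch 2 (n = 24) it ranged from 0.06 (DUSP4, adjusted permutation p 0.780) to 0.94 (ETV5), with SPRY2 at 0.92 and SPRY4 at 0.86, and SPRED2 missed the threshold (0.29, adjusted permutation p 0.197). SPRED2 missed it also without the replicate 1 libraries (0.34, adjusted permutation p 0.0525). Leaving out all replicate 4 libraries lowered r to 0.17 for SPRY2 and 0.28 for SPRY4, which then missed the threshold (adjusted permutation p 0.347 and 0.130), and raised it to 0.62 for DUSP4. The order of the genes thus depended on the batch, and ETV5 was above 0.7 in each. Within 1 batch the 2 libraries of a condition have residuals that mirror each other, and a single library has a residual of 0. The permutations within a batch treat mirrored residuals as separate values, so those p-values are too small. In batch 2 these residuals carry the difference of replicate 4 from replicate 3.

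**Figure D5:**
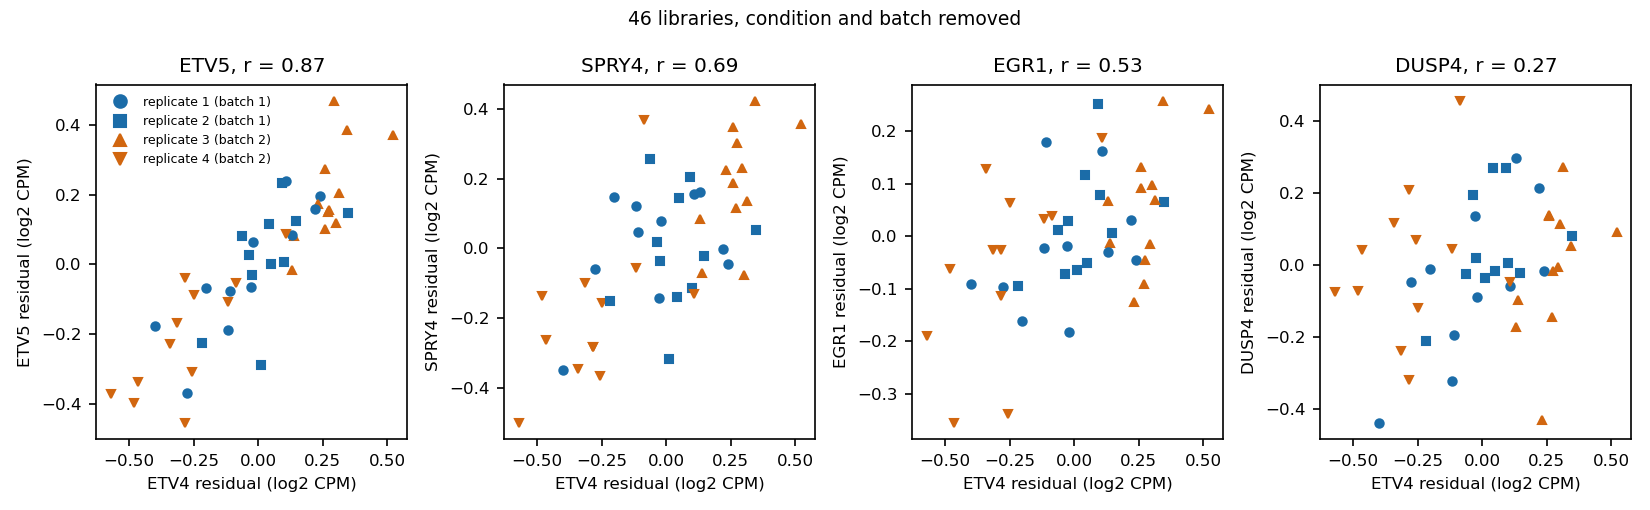
Residual log2 CPM of ETV5, SPRY4, EGR1 and DUSP4 against that of ETV4 in 46 libraries, with condition and batch removed and symbols for replicate. The r falls from 0.87 for ETV5 to 0.27 for DUSP4, and the replicate 4 libraries lie mostly at low ETV4 values.

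Among the 15258 other genes with a mean of at least 1 CPM, the 5 most like ETV4 by Pearson r over 46 libraries, with condition and batch removed, were HMOX1 (0.89), ETV5 (0.87), ZCCHC12 (0.87), UPP1 (0.86) and TFIP11 (0.84). HMOX1 encodes heme oxygenase, and UPP1 uridine phosphorylase. The median over all these genes was 0.00 and the 95th percentile 0.50. SPRY4 ranked 114th, SPRY2 119th, ETV1 415th, SPRED1 470th, EGR1 612th, DUSP6 1327th, SPRED2 1360th and DUSP4 2880th. These ranks depended on what was removed. With the replicate number removed in place of the batch, UPP1 ranked 1st (0.80), ZCCHC12 5th, ETV5 6th, HMOX1 8th and TFIP11 66th. SPRED2 then ranked 42nd, SPRY2 391st, EGR1 535th, DUSP6 686th, DUSP4 780th, SPRY4 852nd, SPRED1 1209th and ETV1 1270th.

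All 45 pairs of the 10 genes had a positive r in these residuals, from 0.15 to 0.87 with a median of 0.42. They share libraries and scaling, and this is a description.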

How the data were processed

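The authors sequenced poly(A) RNA. Their deposited table holds whole-number counts for each gene and library with no batch correction. The submitters' processing notes name GRCh38.p12, R 4.3.0, DESeq2 1.40.2 and limma 3.56.2, while the aligner, the counter and the use of strand are not given in the sources used here. The authors also deposited a gene length in bases, used only for levels per kilobase. The 10 genes and all lists were chosen with earlier results of these data known.

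Counts were tested here with edgeR 4.0.16 (quasi-likelihood test, TMM, terms for condition and batch over 46 libraries, filterByExpr with a minimum count of 10) in R 4.3.3, with Benjamini-Hochberg adjustment and calls at an adjusted p under 0.05. CPM was computed from the counts, and log2 CPM with a prior count of 2. Alternatives were RLE size factors, DESeq2 1.42.0, no batch term, the replicate block, no filter, a mean CPM of at least 1, library sizes from nuclear genes, the compared libraries only, each batch alone and leaving out each library. For COX2, the p-values were not used. Correlations used 100000 seeded permutations of the residuals. These took no account of the fitted condition and batch or replicate terms, so the permutation p-values are too small.

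On simulated counts for the CYTB comparison over 19812 genes, 74 of 100 genes changed by 0.5 and 92 of 100 changed by 1 (log2) were called, with 0 in the wrong direction and 7 unchanged genes called. These shares describe the simulated counts only. They do not give the power for the chosen genes, whose own spread between libraries was not tested in this way. In the data ETV4 after COX3 silencing was not called at a log2 fold change of 0.64 (SE 0.18, adjusted p 0.106 in edgeR).

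Replicate numbers were taken to pair libraries, because the study's methods tie numbers to batches and all 242 pairs of libraries with the same number deviated together from their condition means (r 0.101 to 0.379). Their mean r was 0.206, beside 0.160 (-0.301 to 0.364) for pairs of the same batch with another number. With the batch removed the pairs with the same number had r of -0.113 to 0.0912 (mean -0.0140), so the pairing is mainly that of the batch. The blocked fits had been run when this was decided. The 66 pairs of libraries of one condition differed beyond sampling noise (chi-square 3.47 to 23.4 per degree of freedom).

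Named genes were the 10 chosen ones, genes of the pathway lists called over all genes tested (up to 6 a list, smallest adjusted p first; for the batch, early genes only) and the 5 genes most like ETV4. P-values measure the spread between these replicate libraries.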

Additional observations from a re-analysis of the deposited data

Results flagged for a closer look

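Of 100 groups of 4 libraries (10 genes in 10 conditions), 4 had a library far from the other 3 by Dixon's test on log2 CPM, where chance gives about 1 in 20. ETV4 was low in COX1 replicate 4 (8.89 CPM) and in COX3 replicate 4 (12.9 CPM), both replicate 4 libraries, and high in ND3 replicate 3 (15.2 CPM). DUSP6 was low in ATP6 replicate 1 (3.30 CPM).

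EGR1 after ND5 silencing differed from its mean in the other 9 treatments by a log2 fold change of -0.37 (adjusted p 0.00589 in edgeR) and was below the lowest control in 4 of 4 libraries.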

How the results depend on the processing

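Against control in 10 treatments, where 0 of 100 tests of the 10 genes were called, the count was 2 with the replicate block (ETV4 after ATP8 and COX3), 2 without all replicate 4 libraries, 3 with only the libraries compared (ETV4 after COX3, EGR1 after CYTB and ND5), 6 with no filter (47354 genes tested) and 0 to 0 with each library left out. Calls of all genes in these treatments, 286 (0.141%), moved too, to 672 (0.331%) with the block, 89 (0.0436%) without all replicate 4 libraries, 1274 (0.720%) with only the libraries compared, 1848 (0.390%) with no filter and 1217 (0.644%) in DESeq2, where none of the 10 genes was called. Across 11 conditions, where EGR1 alone was called, the count was 0 with no batch term and in batch 1 or batch 2 alone, 3 with the replicate block or without all replicate 4 libraries and 5 with no filter, beside 98 calls of all genes in the fit reported and 27, 53, 23, 279, 72 and 1050 in these, in that order. With each library left out it was 1 to 2, the 2 without COX3 replicate 4, when ETV5 had an adjusted p of 0.0486. Against the other treatments the count was 6 with no filter (all genes 929, from 206), 0 in batch 1 alone (109) and 0 to 1 with each library left out, 0 without ND5 replicate 3 or 4. Without all replicate 4 libraries that count was 1, but of ETV5 after COX3 and no longer of EGR1 after ND5 silencing. The mean of 10 treatments gave 1 with no filter (ETV4; all genes 264, from 20). The pathway lists, with 1 call, gave 4 with the replicate block, 5 with no filter, 0 in batch 1 or batch 2 alone, 2 without all replicate 4 libraries, 7 with only the libraries compared, 8 in DESeq2 and 1 to 3 with each library left out. The causes were not tested.

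Without a test, after COX2 silencing, DUSP6 turned to 0.035 in batch 1 alone and 0.062 without all replicate 4 libraries (-0.19 to 0.060 with libraries left out), SPRY2 to -0.12 (-0.049 to 0.19 with libraries left out), SPRED2 to -0.055 and ETV1 to -0.0085 in batch 2 alone. ETV4 after ND4L silencing turned to -0.065 in batch 2 alone and the batch difference of SPRY4 to 0.013 without all replicate 4 libraries. ETV4 after COX2 silencing ranged from 0.62 to 1.14 with libraries left out. The block changed no other call of the 10 genes than those given here and in the report. The mean of 10 treatments, the replicate comparison and the settings without all replicate 4 libraries were chosen after seeing the data, the last because ETV4 was low in those libraries. ETV5 was low there too, so the calls of ETV4 and ETV5 in these settings are not independent of that choice.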
